A study of Mus musculus with 4 samples.

Results

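Cytosolic ribosomal proteins are the proteins that, together with ribosomal RNA, build the small and the large subunit of the ribosome outside mitochondria. The genes described here were the protein-coding genes whose symbols follow the Rpl, Rps, Rplp or Rpsa naming, without the ribosomal S6 kinases. This rule found 95 of the 53465 genes listed. Of these, 77 were canonical ribosomal protein genes, 46 of the large subunit and 31 of the small subunit. The others were 7 paralogs such as Rpl22l1, 10 genes named as retrocopies or pseudogenes, and Rps19bp1, which encodes a protein that binds RPS19. A low-count filter kept 92 of the 95 genes and all 77 canonical ones. Rpl10l and Rpl36-ps4 had 0 counts in every library, and Rpl9-ps1 had 1, 1, 0 and 1 counts, so these 3 were not tested.

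The samples were MDSCs (myeloid-derived suppressor cells, immature neutrophil-like and monocyte-like cells that restrain T cells) from the spleens of BALB/c mice carrying the 4T1 mammary carcinoma line. Per the labels, mice were sacrificed on day 21 after injection, whereas the study's methods give a shorter time. The study's methods describe male mice and bead sorting of spleen cells with an antibody to Gr-1, an epitope of Ly6G and Ly6C. The sorted cells were kept for 6 h in control medium (control group, 2 libraries) or in medium with 5 ug/mL EGCG, epigallocatechin gallate, the main catechin of green tea (EGCG treatment group, 2 libraries). All 4 libraries thus share the strain, the tumor, the sort and the 6 h in culture. How many mice gave each library is not stated, so p-values measure only the spread between these libraries, which may be technical.

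In mice nearly every ribosomal protein is encoded by 1 active gene with introns, and its mRNA has been copied back into the genome many times as retrocopies. Ribosomal protein mRNAs usually begin with a C followed by a run of pyrimidines, the 5′ terminal oligopyrimidine (TOP) tract, through which mTOR signalling and the RNA-binding protein LARP1 control their translation and stability. Myeloid cells make many ribosomes while they proliferate and fewer as they mature into neutrophils.

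The 4 libraries held 17767318 to 18390385 counts. Levels below are given in CPM, the usual depth-scaled unit for counts, with library sizes scaled by the trimmed mean of M-values (TMM). The label was checked on fixed marker lists: neutrophil genes, led by S100a9, summed to 59196 to 79411 CPM with 10 of 10 detected, and monocyte genes to 1496 and 1275 CPM in the control group and 1140.4 and 1184 CPM in the EGCG treatment group with 6 of 6 detected. Markers of B cells, cells that the sort should remove, summed to 1753 and 1848 CPM in the control group and 1948 and 2004 CPM in the EGCG treatment group. T cell markers were likewise higher in both EGCG libraries (98.1 and 109 CPM against 112 and 116 CPM). Macrophage markers were lower in both (708 and 699.9 CPM against 553 and 631 CPM), as were those of basophils or eosinophils (1119 and 996 CPM against 968 and 833 CPM). Endothelial markers were also lower in both (114 and 126 CPM against 94.2 and 98.6 CPM), as were platelet markers (38.7 and 43.6 CPM against 35.4 and 34.2 CPM). Tumor epithelial markers summed to 22.7 to 26.7 CPM, with Krt8 and Krt14 at or under 3 counts per library. In bulk samples such as these, fewer cells of a type and less RNA per cell cannot be told apart.

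The first bases of the mRNA are what the TOP rule refers to, so the sequence around the annotated start is shown for genes that the results below describe. RefSeq start windows (GRCm38.p6) were matched by symbol for 57 of the 77 canonical genes. Each sequence below runs 5′ to 3′ from 10 bases before to 20 bases from the annotated start, 30 bases in all, and capitals mark its longest run of C and T.
Rps10 (chr17:27635225-27635254, minus strand): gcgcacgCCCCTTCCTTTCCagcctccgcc
Rpl13a (chr7:45128726-45128755, minus strand): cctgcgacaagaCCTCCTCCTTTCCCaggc
Rpl15 (chr14:18270967-18270996, minus strand): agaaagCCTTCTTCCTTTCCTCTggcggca
Rplp2 (chr7:141447641-141447670, plus strand): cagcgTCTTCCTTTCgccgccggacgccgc
Rps9 (chr7:3704031-3704060, plus strand): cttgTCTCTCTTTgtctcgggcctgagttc
Rps16 (chr7:28350679-28350708, plus strand): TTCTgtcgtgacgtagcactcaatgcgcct
Rps3 (chr7:99483690-99483719, minus strand): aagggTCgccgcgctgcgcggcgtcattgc
Rpl35 (chr2:39005112-39005141, minus strand): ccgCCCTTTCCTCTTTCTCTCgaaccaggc
Rpl10a (chr17:28328555-28328584, plus strand): atttgagcgcatgcgcaaagcgCTCTgcct
The first 7 genes had higher counts in EGCG, with longest runs from 2 bases in Rps3 and 4 in Rps16 to 17 in Rpl15. Rpl35 overlapped between the groups and Rpl10a was lower. Rpl15 had 10.9 and 11.5 CPM in the control group and 16.2 and 12.5 CPM in the EGCG treatment group, and Rpl35 had 24.9 and 23.2 CPM against 26.4 and 19.8 CPM. Rpl10a has another annotated start with a run of 7 pyrimidines. The median longest run was 7 bases over the 57 genes and 5 over the 27025 genes in the table. The letters CTTTC, searched on the sense strand of this window, were found in 14 of the 57 genes (24.6%), against 4.43% of all genes. CTTCCGG, letters of an ETS-type motif, searched on both strands of the 300 bases from 250 before to 50 after the start, was found in 24 genes (42.1%), against 9.93% of all genes. AAGATGG, letters of a YY1-type motif, searched in the same way, was in 9 genes (15.8%) against 7.28%, and TATAA was in 16 (28.1%) against 28.0%. The 14 genes with CTTTC had a median log2 fold change of 0.09, and the 43 without it one of 0.13. The medians with and without the other letters were 0.11 and 0.13 for CTTCCGG, 0.18 and 0.11 for AAGATGG, and 0.15 and 0.10 for TATAA, given as descriptions with no test. CTTTC was thus more frequent at the starts of these genes than at all starts, while the median fold changes with and without a motif differed in both directions. A match describes letters, not a bound site. The starts used in these cells were not measured, and some genes have several annotated starts. A short run or a missing CTTTC thus does not show that a gene lacks a TOP tract.

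Ribosomal protein genes were a little more abundant in the EGCG treatment group than in the control group, and no single gene passed the test. The share of counts on the 95 genes was 0.869% and 0.925% in the control group, and 0.997% and 0.978% in the EGCG treatment group. The 77 canonical genes summed to 7972 and 8736 CPM in the control group and 9499.5 and 9315 CPM in the EGCG treatment group. The EGCG libraries were above both control libraries, and the log2 ratio of the group means was 0.17, with a standard deviation between replicates of 0.07. An exact permutation test of such a sum over 2 against 2 libraries cannot go below p = 0.333.

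Of the 92 tested genes, 76 were higher and 16 lower in EGCG, and the median log2 fold change was 0.14. Over all 14682 tested genes, 50.6% were higher and the median was 0.00. At an adjusted p under 0.05, the quasi-likelihood test of edgeR called 0 of the 92 genes. The smallest p after Benjamini-Hochberg adjustment was 0.128. The background of such calls was 0.0136% of all tested genes higher and 0.136% lower. At an unadjusted p under 0.05, 25 of the 92 were higher, where the background was 5.22%, and 2 were lower, where it was 7.02%. DESeq2 called 0 of the 92 genes after adjustment, against 0.463% of all tested genes in either direction. limma-voom called 0, against 0.163%. At an unadjusted p under 0.05, DESeq2 had 14 higher and 1 lower, and limma-voom 25 higher and 2 lower. The background given at that threshold is from edgeR, not from these tools. Both EGCG libraries lay above both control libraries for 45 of the 92 genes, against 21.5% of all tested genes, and below them for 3 genes, against 21.2%.

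The size of this difference depended on the control library. Control 1 was the lowest of the 4 libraries for 56 of the 77 canonical genes, while control 2, EGCG 1 and EGCG 2 were the lowest for 7, 5 and 9. EGCG 1 was the highest for 40 genes, EGCG 2 for 21, control 2 for 12 and control 1 for 4. Within the control group, control 2 exceeded control 1 by a median of 0.13 on the log2(CPM + 0.5) scale, with 65 of 77 genes higher. The difference between the 2 control libraries was thus about as large as the median fold change between the groups.

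The pairs of libraries across the groups differed in the same way. EGCG 1 exceeded control 1 by a median of 0.24 (68 of 77 genes higher) and EGCG 2 exceeded it by 0.18 (63 genes). Against control 2 the medians were 0.12 for EGCG 1 (58 genes) and 0.04 for EGCG 2 (48 genes). EGCG 2 lay a median of 0.04 below EGCG 1, with 28 genes higher. All 4 cross-group medians were above 0, but the smallest of them was no larger than the difference between the EGCG libraries. Over all tested genes the median of each pair was between -0.0014 and 0.0064, so scaling had centred the libraries on each other.

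**Figure D1:**
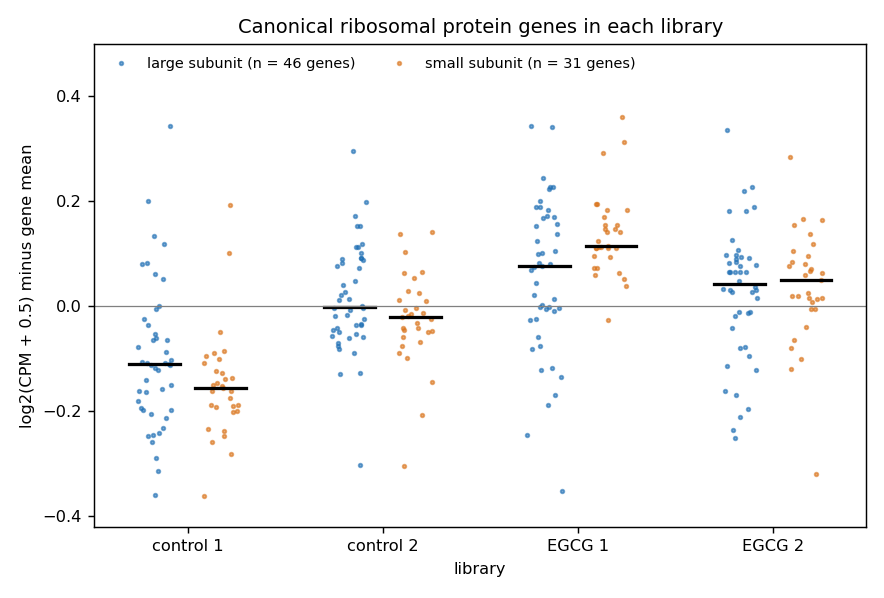
Each point is 1 canonical ribosomal protein gene in 1 library (horizontal axis), plotted as its log2(CPM + 0.5) minus its own mean over the 4 libraries, for the large subunit (46 genes, blue) and the small subunit (31 genes, orange). Black lines are medians, which lie at -0.11 and -0.15 in control 1, near 0 in control 2, at 0.08 and 0.12 in EGCG 1 and at 0.04 and 0.05 in EGCG 2.

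Leaving out control 1 lowered the median of the tested genes to 0.09, and leaving out control 2 raised it to 0.23. Without control 2 the same test called 9 of the genes, 8 higher, among them Rps10, Rps3, Rpl34, Rplp1, Rpl22l1, Rps27rt and Rps12-ps3, and 1 lower, Rpl10a. That fit called 2.31% of all genes tested, in either direction. Without control 1 the same test made no such call, and the medians were 0.06 for the large and 0.11 for the small subunit. Without EGCG 1 it called Rps16 and Rpl13a-ps1, and without EGCG 2 it called Rps10, Rps24, Rpl34 and Rpl39, all higher. Those fits called 0.771% and 1.64% of all genes tested, in either direction. The library left with no partner in these fits is assumed to vary like the other group. The summed neutrophil markers were also lowest in control 1 (59196 CPM) and highest in EGCG 1 (79411 CPM), with 70700.2 CPM in control 2 and 70101 CPM in EGCG 2. The part of these markers, and of the other cell type markers given above that separated the groups, in the ribosomal protein levels was not tested.

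By the genes' own counts, more of the small-subunit than of the large-subunit genes were higher in EGCG, a difference that was not tested and that narrowed without EGCG 1 and with copies summed, as given below. Of the 31 small-subunit genes 29 were higher (93.5%), with a median log2 fold change of 0.18 (quartiles 0.12 and 0.23). Of the 46 large-subunit genes 33 were higher (71.7%), with a median of 0.10 (quartiles -0.02 and 0.19). Both EGCG libraries lay above both control libraries for 21 small-subunit genes, and the groups overlapped for the other 10. For the large subunit, 18 genes lay above, 3 below (Rpl10a, Rpl21 and Rpl3), and 25 overlapped. Of all tested genes 21.5% lay above and 21.2% below. At an unadjusted p under 0.05 there were 11 small-subunit genes higher and 0 lower, against 9 higher and 2 lower in the large subunit, where the background was 5.22% higher and 7.02% lower.

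The ratio of the subunits' summed CPM followed the groups. Small-subunit genes summed to 4411 and 4814 CPM in the control group and 5383 and 5257 CPM in the EGCG treatment group. Large-subunit genes summed to 3561 and 3923 CPM in the control group and 4117 and 4058 CPM in the EGCG treatment group. The ratio of small to large was 1.24 and 1.23 in the control group and 1.31 and 1.30 in the EGCG treatment group. Rps9 and Rps3 carried much of this, since Rps9 alone held 10.4% to 11.7% of the canonical counts and Rps3 7.46% to 8.44%. Without those 2 genes the log2 ratio was -0.27 and -0.28 in the control group and -0.21 and -0.26 in the EGCG treatment group. The groups then barely separated.

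The order of the medians depended on EGCG 1. Without that library the medians were 0.11 for both subunits, with 26 of 31 small-subunit and 33 of 46 large-subunit genes higher. The median was higher for the small subunit than for the large when genes were split by level: 0.18 against 0.12 among genes at or above the median CPM, and 0.15 against 0.07 among those under it.

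**Figure D2:**
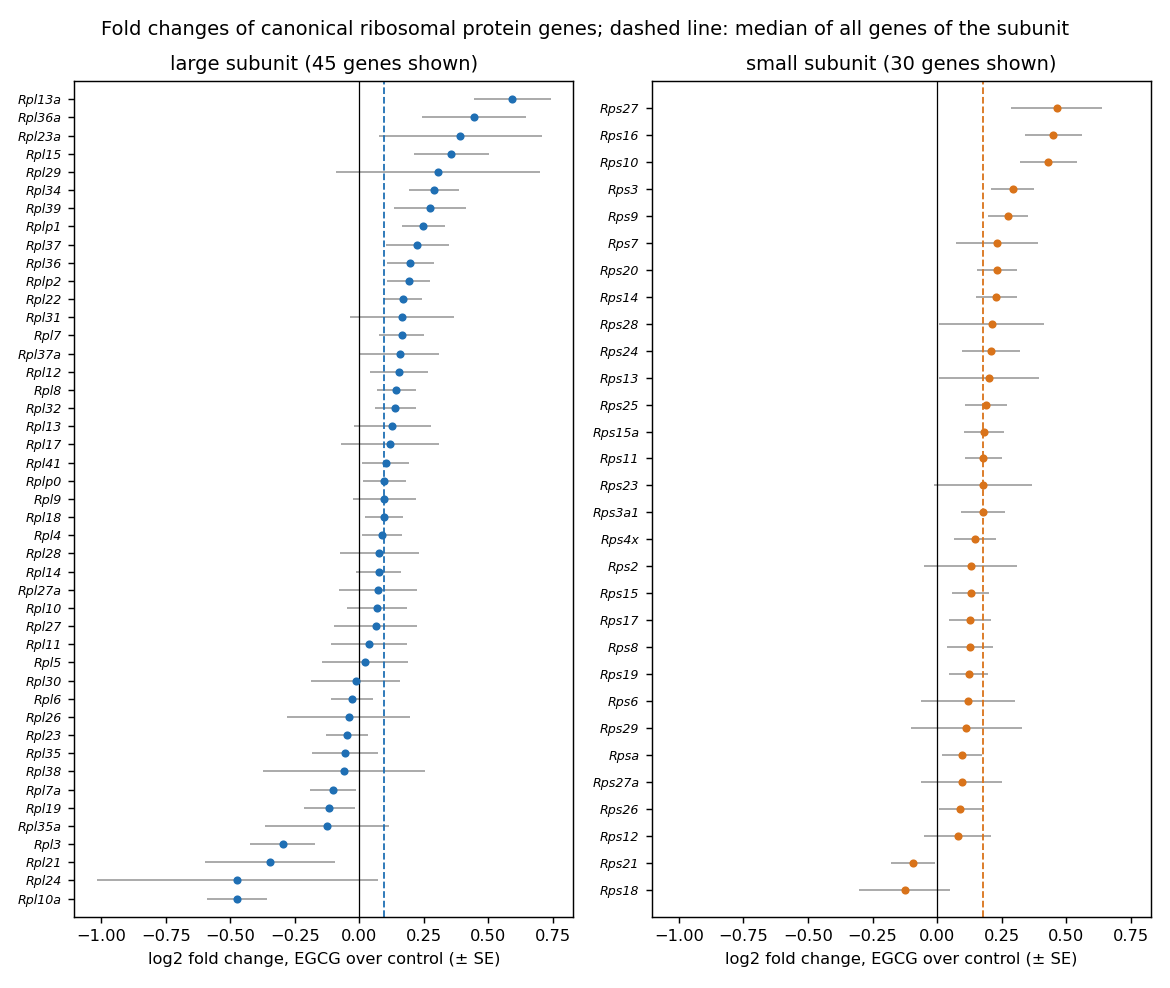
Log2 fold change, EGCG over control, with its standard error from edgeR, for canonical ribosomal protein genes, sorted within the large and the small subunit; genes not reported here are left out of the points. Dashed lines mark the medians of 0.10 and 0.18 over all 46 and 31 genes, and in the small-subunit panel only Rps18 and Rps21 lie below 0.

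Rps9, which helps keep decoding accurate, was the most abundant member and was sequenced deeply enough to be read closely. It had 862 and 909 CPM in the control group and 1051 and 1090.2 CPM in the EGCG treatment group, so the groups did not overlap. Its log2 fold change was 0.27 (SE 0.08), with an adjusted p of 0.184 by edgeR. Rps3, at the mRNA entry of the small subunit and also a DNA repair factor, had 595 and 683 CPM in the control group. It had 779 and 786 CPM in the EGCG treatment group, again without overlap, and a log2 fold change of 0.29 (SE 0.08, edgeR adjusted p = 0.188). The gap between the 2 control libraries of Rps3 was nearly as wide as that between control 2 and the EGCG libraries.

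Rps10 (chr17:27630418-27636669, minus strand), Rps16 and Rpl13a had the smallest p-values among the genes that were higher. Rps10, a protein of the small-subunit head, had 29.1 and 35.8 CPM in the control group and 46.2 and 41.4 CPM in the EGCG treatment group. Rps16 (chr7:28350652-28353155, plus strand) had 20.2 and 17.96 CPM in the control group and 24.9 and 27.3 CPM in the EGCG treatment group. Their log2 fold changes were 0.43 (SE 0.11) and 0.45 (SE 0.11), with edgeR adjusted p of 0.133 and 0.132. These counts were 15.9% and 5.79% of those on gene and copies together, and summed with the copies, as described below, the fold changes were 0.22 and 0.19. The groups of both genes did not overlap, and the lowest library of Rps16 was control 2, not control 1. Rps27, a zinc-finger protein of the small subunit, had 5.75 and 6.38 CPM in the control group and 9.27 and 7.45 CPM in the EGCG treatment group (log2 fold change 0.46, SE 0.18, edgeR adjusted p = 0.321), and 0.24 with its copy summed.

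Other small-subunit genes with known roles had smaller fold changes by their own counts. Rpsa, whose protein is also the precursor of a laminin receptor described as a cell-surface binding site of EGCG, had 419 and 468 CPM in the control group. It had 470.3 and 478 CPM in the EGCG treatment group, a log2 fold change of 0.10 (SE 0.08). EGCG 1 exceeded control 2 by less than 3 CPM. Rps6, the substrate of S6 kinase, had 5.48 and 5.82 CPM in the control group and 6.56 and 5.71 CPM in the EGCG treatment group. The groups overlapped by these counts, which were 2.93% of those on gene and copies together. With copies summed Rps6 had 184 and 197 CPM against 204 and 219 CPM, without overlap (log2 fold change 0.15, SE 0.08). Rps2 at the mRNA entry had a log2 fold change of 0.13 (SE 0.18). Rps27a, made as a fusion with ubiquitin, had 0.10 (SE 0.16). With copies summed Rps2 had 0.24 (SE 0.08), Rps27a 0.26 (SE 0.12) and Rpsa 0.15 (SE 0.08), so Rps2 and Rps27a were then no smaller than Rps10 and Rps16. Rps19 and Rps24, which with Rpl35a are mutated in inherited failure of red cell production, had 0.12 (SE 0.08) and 0.21 (SE 0.11), and Rpl35a had -0.13 (SE 0.24). Rps24 had 290.2 CPM in EGCG 1 and only 215 CPM in EGCG 2, which lay between the control values of 205 and 232 CPM.

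By the genes' own counts, Rpl13a (chr7:45125558-45128761, minus strand) had the largest fold change of the large subunit. Its protein leaves the ribosome in interferon-treated myeloid cells and joins the GAIT complex, which blocks translation of inflammatory mRNAs. Rpl13a had 7.39 and 7.16 CPM in the control group and 10.5 and 11.4 CPM in the EGCG treatment group, a log2 fold change of 0.59 (SE 0.15, edgeR adjusted p = 0.133). The values came from 128 to 204 counts, 3.99% of those on gene and copies together, and the groups did not overlap. With copies summed the fold change was 0.33, below that of Rpl31, Rpl30, Rpl34, Rpl29 and Rpl15. Rpl13a-ps1, named as a copy of Rpl13a but not part of this sum, had 2.90 and 3.13 CPM against 4.03 and 6.27 CPM (log2 fold change 0.77, SE 0.24, edgeR adjusted p = 0.230).

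The 3 genes of the stalk, which recruits elongation factors to the large subunit, had positive fold changes that did not pass the test. Rplp1 had 257 and 291 CPM in the control group and 339 and 312 CPM in the EGCG treatment group (log2 fold change 0.25, SE 0.08, edgeR adjusted p = 0.251). Rplp2 had 78.3 and 81.0 CPM against 84.8 and 96.9 CPM, and Rplp0 had 262 and 297 CPM against 287 and 311 CPM, with edgeR adjusted p of 0.388 and 0.686. The groups of Rplp1 and Rplp2 did not overlap, while those of Rplp0 did. Rpl5 and Rpl11, which bind the smallest ribosomal RNA of the large subunit and restrain Mdm2, had log2 fold changes of 0.02 (SE 0.17) and 0.04 (SE 0.15) from their own counts. Those counts were only 3.47% and 6.35% of the counts on gene and copies together. Summed with their copies, as described below, Rpl5 had 0.13 (SE 0.07) and Rpl11 0.19 (SE 0.07), with both EGCG libraries above both control libraries. Rpl4 and Rpl7, among the 5 most abundant members, had log2 fold changes of 0.09 (SE 0.08) and 0.16 (SE 0.09). Around the peptidyl transferase center and the exit tunnel, Rpl10 had 0.07 (SE 0.12) and Rpl23a 0.39 (SE 0.32). Rpl36a had 0.45 (SE 0.20), with 3.61 and 4.59 CPM against 5.68 and 5.49 CPM. With copies summed these 3 genes lay closer together, at 0.18 (SE 0.09), 0.25 (SE 0.10) and 0.22 (SE 0.09).

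Rpl10a (chr17:28328471-28331033, plus strand), an L1-stalk protein near the tRNA exit site, was lower in EGCG. It had 25.5 and 21.7 CPM in the control group and 16.8 and 17.2 CPM in the EGCG treatment group, without overlap. Its log2 fold change was -0.47 (SE 0.12), and its edgeR adjusted p of 0.128 was the smallest of all members. Scaling by library size alone moved it past the threshold, with -0.51 and an adjusted p of 0.0437. Over all alternatives its adjusted p ranged from 0.0129 without control 2 to 0.966 with its copies added, as described below. Rpl3, next to the peptidyl transferase center, had 14.1 and 14.3 CPM against 11.8 and 11.4 CPM (log2 fold change -0.30, SE 0.13, edgeR adjusted p = 0.372). Rpl21 had 3.07 and 2.80 CPM against 2.26 and 2.35 CPM. Rpl19 and Rpl7a had log2 fold changes of -0.12 (SE 0.10) and -0.10 (SE 0.09), and their groups overlapped. With copies summed Rpl19 turned to 0.13 and Rpl3 moved to -0.03, their own counts being 15.0% and 4.82% of the sums.

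In the ribosome the canonical proteins stand mostly in a fixed ratio, whereas the levels from their genes' own counts spanned a wide range. Per kilobase of the main mRNA, mean control levels ran from 0.859 CPM for Rpl24 to 1179 CPM for Rps9, with a median of 28.1 CPM. The median was 22.3 CPM per kilobase for the large subunit, where Rplp1 was highest with 549 CPM, and 67.0 CPM per kilobase for the small subunit, where Rps2 was lowest with 5.01 CPM. By own counts Rpl24, Rpl29 and Rpl23a had the lowest CPM of all canonical genes, with control means of 0.582, 0.830 and 1.44 CPM. Rpl24 rested on 10, 11, 5 and 10 own counts, so its log2 fold change of -0.47 had a standard error of 0.54. With copies summed, as described below, the control means of Rpl24, Rpl29 and Rpl23a were 78.0, 37.8 and 52.9 CPM. The range above thus describes own counts, not gene and copies together.

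Sequence shared with copies moved with these levels. A median of 49.0% of the 50-base words in a canonical gene's main mRNA also occur in transcripts of other annotated genes, from 0 to 98.6%, the highest for Rps27. Across the 77 genes this share had a Spearman correlation of -0.34 with the level per kilobase and -0.25 with the log2 fold change. Both are descriptions across genes of the same libraries, and genes are not independent replicates. The annotated main mRNA of Rps15a and Rps20 has 5179 and 3706 bases, against a median of 780, with 6.28% and 7.44% of their words shared. Such lengths enter both the level per kilobase and the share, and which isoforms these cells made was not tested. How reads that fit several genes were counted is not given in the sources used here.

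**Figure D3:**
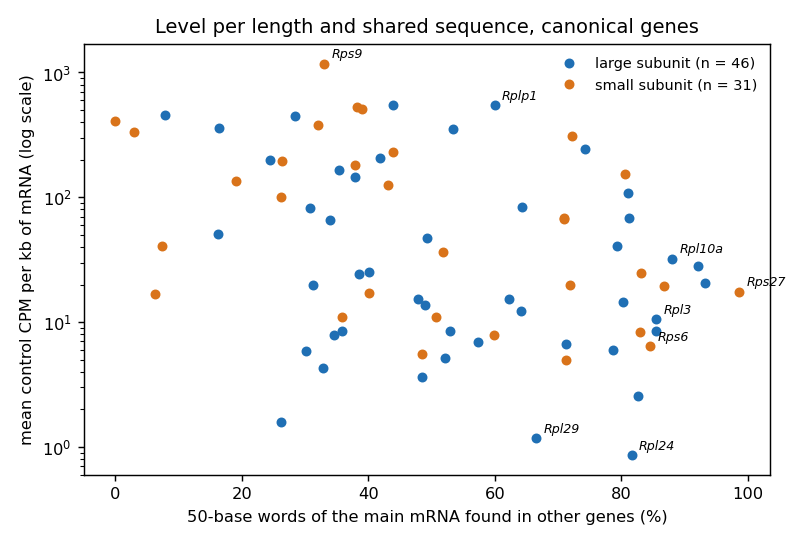
Mean control level per kilobase of the main mRNA (CPM, log axis) against the percent of the gene's 50-base words that also occur in other genes, for 46 large-subunit (blue) and 31 small-subunit genes (orange). By the genes' own counts, Rps9 has the highest level with 33.0% of its words shared, and Rpl24 the lowest with 81.7% of them shared.

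The likeness of gene and copy is shown for pairs whose counts bear on the results. Each pair of lines gives the same 60 bases of the coding sequence, 5′ to 3′, in the transcript of the gene and of its copy (GENCODE M21, GRCm38), and capitals mark the base that differs.
Rpl3, coding bases 27 to 86: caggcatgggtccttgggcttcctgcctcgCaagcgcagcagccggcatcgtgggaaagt
Rpl3-ps1 (chrX:13202571-13203780, plus strand): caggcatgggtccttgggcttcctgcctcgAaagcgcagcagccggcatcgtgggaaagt
Rpl9, coding bases 236 to 295: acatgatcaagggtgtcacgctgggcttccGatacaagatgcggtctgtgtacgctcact
Rpl9-ps6 (chr19:32465865-32466578, minus strand): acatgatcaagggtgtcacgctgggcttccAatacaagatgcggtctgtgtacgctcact
Rpl10a and Rpl10a-ps1 (chr1:64993951-64994604, minus strand), coding bases 4 to 63 of both: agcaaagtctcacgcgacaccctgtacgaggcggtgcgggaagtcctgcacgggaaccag
Rpl3 and Rpl3-ps1 differed at 2 of 1210 aligned bases, and Rpl9 and Rpl9-ps6 at 1 of 692. Rpl10a and Rpl10a-ps1 were the same over all 648 aligned bases, Rps27 and Rps27rt over 341, and Rps12 and Rps12-ps3 over 494.

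In these pairs most counts lay on the copy. Rpl3-ps1, a processed pseudogene, had 4562 and 4582 counts in the control group and 4396 and 4565 in the EGCG treatment group, whereas Rpl3 had 258, 256, 214 and 203. Rpl10a-ps1 had 2509 and 2567 counts in the control group and 2684 and 2658 in the EGCG treatment group, whereas Rpl10a had 465, 387, 304 and 307. Rps27rt, the intronless copy of Rps27, had 177 and 227 CPM in the control group and 253 and 220.3 CPM in the EGCG treatment group, far above Rps27 itself. Counts of a gene and of such a copy cannot be assigned to either with certainty, and both values are uncertain for these genes.

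A canonical gene's counts and those of its copies were therefore also summed into a family, a choice made after seeing the data. The families held 538 copies, a median of 4 and at most 52 for a gene, where a copy shared at least 50 of the gene's 50-base words. Of the family's counts a median of 29.0% lay on the canonical gene itself, under 10% for 25 genes and only 0.615% for Rpl24. After summing, 70 of 77 families (90.9%) were higher in EGCG, with a median log2 fold change of 0.18. The medians were 0.16 for the large subunit (41 of 46 higher) and 0.20 for the small subunit (29 of 31 higher). The subunits therefore lay closer together than by the genes' own counts, at 0.10 and 0.18.

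By edgeR's quasi-likelihood test on the summed counts, 0 families passed the adjusted threshold, which 0.0138% of all genes and families passed higher and 0.111% lower. At an unadjusted p under 0.05, 38 were higher and 0 lower, where 5.18% and 6.96% of the 14446 genes and families tested were. The groups did not overlap for 53 families, all higher in EGCG, where 21.5% of all genes and families lay above and 21.3% below. Rpl31 had the smallest adjusted p, 0.0673 by edgeR: its family had 147 and 169 CPM in the control group and 216 and 208 CPM in the EGCG treatment group, a log2 fold change of 0.42 (SE 0.08). Rpl30 followed with 135 and 158 CPM against 194.3 and 194.3 CPM (0.41, SE 0.08, edgeR adjusted p = 0.0803), although the gene's own counts gave a log2 fold change of -0.01. Both families rested on a single copy, Rpl31-ps8 and Gm12191, for most of their counts.

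Summing turned the sign of canonical genes in both directions, 10 from lower to higher and 2 from higher to lower in EGCG. Rpl10a had 164 and 166 CPM in the control group and 166 and 167 CPM in the EGCG treatment group, a log2 fold change of 0.01 (SE 0.07). Rpl3 had -0.03 (SE 0.07), and Rpl24 had 0.12 (SE 0.08). Rpl21, with 52 copies, remained below 0 at -0.14 (SE 0.14), as did Rpl3, Rpl35, Rpl6 and Rpl7a. The 10 that turned higher were Rpl10a, Rpl19, Rpl23, Rpl24, Rpl26, Rpl30, Rpl35a, Rpl38, Rps18 and Rps21. Rps28 and Rps29 turned the other way, from 0.21 to -0.08 (SE 0.08) and from 0.11 to -0.15 (SE 0.11), and were then the 2 small-subunit families lower in EGCG in place of Rps18 and Rps21. The Rps29 family, the lowest of all 77, had 135 and 167 CPM in the control group and 149 and 123 CPM in the EGCG treatment group, so the groups overlapped. At the other end, Rpl13a went from 0.59 to 0.33, Rps16 from 0.45 to 0.19, Rps10 from 0.43 to 0.22 and Rps27 from 0.46 to 0.24. Rps9, with 76.6% of the family's counts on the gene, stayed at 0.27. The fold change of Rps9 thus did not depend on the summing.

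**Figure D4:**
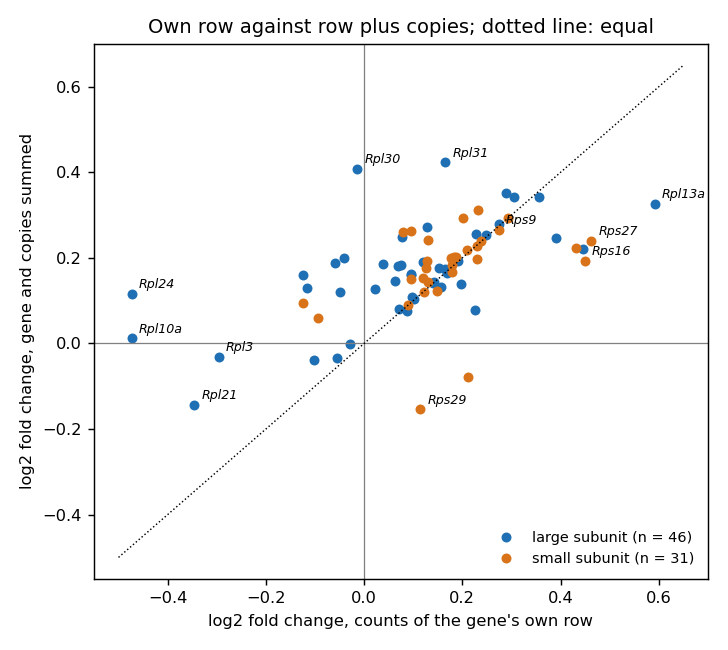
Log2 fold change of each canonical gene from its own counts (horizontal) against that of the gene and its copies summed (vertical), large subunit in blue and small subunit in orange, with the dotted line where both are equal. Rpl10a moves from -0.47 to 0.01 and Rpl13a from 0.59 to 0.33, while Rps9 lies on the line at 0.27.

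The share of counts on pseudogenes of these families was 0.861% and 0.918% in the control group and 0.992% and 0.982% in the EGCG treatment group, close to the share of the 95 protein-coding genes. Of their 531 genes 229 were tested, 197 were higher in EGCG, and the median log2 fold change was 0.22. Gene length moved with the fold change across all tested genes, with a Spearman correlation of -0.29 over 14666 genes of the same libraries. The median exonic length was 1781 bases for canonical genes against 3814.5 for tested genes. Within the canonical genes the correlation was -0.07. With a length correction the medians became 0.06 for the large and 0.13 for the small subunit.

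The paralogs and the genes outside the naming rule were also mostly higher. All 6 tested paralogs were higher, with a median log2 fold change of 0.33, and Rpl36al, Rpl39l and Rpl3l had few counts. Rpl22l1, whose protein can replace Rpl22, had 13.3 and 18.1 CPM in the control group and 21.2 and 18.8 CPM in the EGCG treatment group (log2 fold change 0.35, SE 0.14). Rpl22 itself had 93.0 and 96.2 CPM against 106.3 and 106.4 CPM (0.17, SE 0.07). Control 1 had the lowest value of both. Rpl39, at the exit tunnel, had 26.9, 34.8, 42.7 and 31.8 CPM, and its germline paralog Rpl39l stayed at or under 1.18 CPM. Rpl3l, the striated-muscle paralog, Rpl36al and Rpl7l1 had log2 fold changes of 0.31 (SE 0.24), 0.38 (SE 0.42) and 0.04 (SE 0.08), and Rps27l, a p53 target, had 0.14 (SE 0.10). The 8 tested genes with retrocopy names were all higher, with a median of 0.24. Rack1 and Fau, small-subunit components outside the naming rule, had 0.14 (SE 0.07) and 0.17 (SE 0.11).

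Of 14 other genes with TOP mRNAs, among them elongation and initiation factors but also Tpt1, Npm1, Nap1l1 and Hnrnpa1, 14 were higher in EGCG, with a median log2 fold change of 0.10, 5 of them at an unadjusted p under 0.05 and 0 after adjustment by edgeR. With the length correction 13 of the 14 were higher. Tpt1, a growth-linked gene, had 146 and 172 CPM in the control group and 212 and 209 CPM in the EGCG treatment group (0.40, SE 0.08, edgeR adjusted p = 0.0754). Eif3e, a subunit of an initiation factor, had 77.8 and 83.7 CPM against 97.9 and 100.6 CPM (0.30, SE 0.08, edgeR adjusted p = 0.147). DESeq2 placed Tpt1 past the threshold, with an adjusted p of 0.0145, within a range of 0.000721 to 0.593 over all alternatives. Mitochondrial ribosomal protein genes, tested for 77 of 78, were higher in 57, with a median of 0.11, 7 higher and 0 lower at an unadjusted p under 0.05. For both lists the background at that threshold was 5.22% higher and 7.02% lower.

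Genes that act on ribosomal proteins or on TOP mRNAs were divided in direction. The difference from the ribosomal protein genes was not tested, and their median exonic lengths of 3458 and 7721 bases were above the 1781 of canonical genes, in a table where fold change moved with length. With the length correction 6 of 12 and 6 of 13 were higher, with medians of -0.01 for both lists. Of 12 tested chaperones and importers of ribosomal proteins 6 were higher, with a median of -0.03 and 0 in either direction at an unadjusted p under 0.05. Ipo9 and Ipo5, nuclear importers, had log2 fold changes of -0.22 (SE 0.10) and -0.18 (SE 0.09), and Pdcd2l and Nap1l4 had 0.08 (SE 0.13) and 0.06 (SE 0.07). Of 13 genes that control TOP mRNAs 6 were higher, with a median of -0.02, and 0 passed after adjustment by edgeR. Mtor had 60.4 and 54.0 CPM in the control group and 47.9 and 47.6 CPM in the EGCG treatment group (-0.26, SE 0.09, edgeR adjusted p = 0.263). Larp1 had 106.2 and 89.1 CPM against 81.8 and 87.5 CPM (-0.21, SE 0.09, edgeR adjusted p = 0.382). Eif4ebp1, an inhibitor of cap-dependent initiation, was higher, with 117 and 124 CPM against 137 and 149 CPM (0.24, SE 0.08, edgeR adjusted p = 0.232). These 3 were the genes of that list at an unadjusted p under 0.05, against a background of 5.22% higher and 7.02% lower. Rheb, an activator of mTOR, had 0.14 (SE 0.09).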

How the data were processed

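RNA-seq was available for 4 libraries, 2 per group. The deposited values are raw counts per gene, which the authors made from reads aligned with STAR 2.6.0c to GRCm38 and counted with featureCounts 1.6.2 on Ensembl release 91. The submitters' processing notes also name bcl2fastq 1.8.4 and FastQC. Counts were made without strand, so overlapping antisense genes cannot be told apart. Groups came from the labels.

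From these counts, genes passing edgeR's filterByExpr (minimum count 10) were scaled by TMM and tested in R 4.3.3 with edgeR 4.0.16 (quasi-likelihood, EGCG against control), and p-values were adjusted by Benjamini-Hochberg over the 14682 genes tested, with a threshold of 0.05. DESeq2 1.42.0 and limma 3.58.1 were alternatives, beside 2 other scalings or none, other filters, newer and robust edgeR fits, a length correction (loess, span 0.4), a replicate block and leaving out each library. The test was checked on simulated data. Levels per kilobase used the GENCODE M21 main mRNA. Start windows came from RefSeq tables of GRCm38.p6.

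Members and lists were chosen with earlier results of these data known. Genes were named by role, paralogy or fold change as follows: role, paralog and other-name lists; up to 5 members per direction by p with at least 10 counts in every library; up to 3 per direction by fold change; the 5 most and 3 least abundant canonical genes; and up to 2 per direction from each list of TOP, chaperone and TOP-control genes. Rpl34, Rps12-ps3, Rpl15, Rpl35, Rpl30, Rpl31, Rps18, Rps21, Rps28, Rps29, Rpl6, Rpl23, Rpl26, Rpl38, Rpl9, Npm1, Nap1l1, Hnrnpa1 and the copies shown were named after their values were seen. Results for some genes are not reported here.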

Additional observations from a re-analysis of the deposited data

How the results depend on the processing

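No setting turned the median log2 fold change of the ribosomal protein genes or of either subunit below 0. With each library left out in turn, 0 to 8 members were called higher and 0 to 1 lower, and the median of tested members ranged from 0.0875 to 0.231. The large-subunit median ranged from 0.0615 to 0.185, the small-subunit median from 0.111 to 0.244, and the log2 ratio of summed CPM from 0.111 to 0.241. Library size alone called 1 member lower, while 0 were called with the other scalings, filters and tools. Library size alone also moved the median of all tested genes to -0.03. Over all genes the calls ranged from 0 with no low-count filter (22 as reported) to 151 with library size alone and 354 without control replicate 2, with 68 by DESeq2, 63 by robust edgeR, 8 with the length correction, 77 to 252 with another library left out and 11 both with upper-quartile scaling and with at least 1 CPM in every library. With copies summed, chosen after seeing the data, the large-subunit median was 0.16, and the log2 fold changes of Rpl10a, Rpl19, Rpl24 and Rpl35a turned to 0.013, 0.129, 0.116 and 0.16. Over all canonical genes 10 turned from lower to higher with copies summed, and 2, Rps28 and Rps29, turned to -0.08 and -0.15. The log2 fold change of Rpl5 turned to -0.0144 with library size alone.

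Over the 77 canonical genes 23 changed sign in at least 1 fit that left out a library, and 7 did of the 52 tested genes that the naming rule chose. The ranges of these 7 over the 4 such fits were -0.0922 to 0.218 for Rpl10, -0.152 to 0.209 for Rpl11, -0.372 to 0.178 for Rpl35a, -0.729 to 1.08 for Rpl39l, -0.0748 to 0.115 for Rpl5, -0.0216 to 0.411 for Rps24 and -0.0841 to 0.308 for Rps27a. The labels do not say whether the replicate numbers pair the libraries. Deviations of libraries with the same number had a correlation of 0.03 over 14682 genes. With 2 libraries per group this value cannot show whether the libraries were paired. A replicate block called 0 members and 30 genes in all, against 22 without it, and with the length correction as well it called 3. The cause of these changes was not tested. Counts of 5 to 20 per library, as for Rpl24 and Rpl29, set standard errors near 0.4 or above.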
